A study of Rattus norvegicus with 8 samples.

Results

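The genes of the type IV collagen chains, Col4a1 to Col4a6, were followed in outflow veins of rat arteriovenous fistulas (AVF). They were chosen by gene name, and all 6 were found among the 32623 genes of the count files. The AVF joined the end of the epigastric vein to the side of the femoral artery in Sprague Dawley rats of both sexes. A bilayer nanofiber scaffold of PLA and PLGA was wrapped around the vein next to the anastomosis. The scaffold either released β-aminopropionitrile (BAPN, 4 rats, 3 females and 1 male) or carried no drug (Vehicle, 4 rats, 2 females and 2 males). BAPN inhibits the lysyl oxidases, which crosslink collagen and elastin. All veins were taken 21 days after surgery, so every sample carried both an AVF and a scaffold, and no vein without them was part of the comparison. Each sample was 1 rat.

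Type IV collagen forms the sheet-like network of basement membranes, the thin matrix under endothelium and around smooth muscle cells, pericytes, adipocytes and Schwann cells. Its chains wind into trimers that join end to end into a network. Trimers of the Col4a1 and Col4a2 chains occur in nearly all basement membranes. The Col4a3, Col4a4 and Col4a5 chains form a trimer best known from the kidney glomerulus, where its loss causes Alport syndrome, and Col4a5 and Col4a6 chains enter a further trimer found in some smooth muscle and epithelial basement membranes.

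The 6 genes lie in head-to-head pairs, 2 genes on opposite strands with their start sites next to each other. The promoter windows are shown so that the start regions of a pair can be compared, and the read ratios of the pairs are given further on. Each window runs from 250 bases before to 50 bases after the RefSeq start site, 5′ to 3′ on the gene's own strand, in assembly GRCr8. All 6 genes matched by symbol. Capitals mark the bases that also lie in the window of the partner gene, on its opposite strand. Col4a1 (plus strand) is at chr16:84885347-84885646 and Col4a2 (minus strand) at chr16:84885471-84885770. Col4a3 (plus strand) is at chr9:91323740-91324039 and Col4a4 (minus strand) at chr9:91323528-91323827. Col4a5 (plus strand) is at chrX:109907109-109907408 and Col4a6 (minus strand) at chrX:109905895-109906194.
Col4a1: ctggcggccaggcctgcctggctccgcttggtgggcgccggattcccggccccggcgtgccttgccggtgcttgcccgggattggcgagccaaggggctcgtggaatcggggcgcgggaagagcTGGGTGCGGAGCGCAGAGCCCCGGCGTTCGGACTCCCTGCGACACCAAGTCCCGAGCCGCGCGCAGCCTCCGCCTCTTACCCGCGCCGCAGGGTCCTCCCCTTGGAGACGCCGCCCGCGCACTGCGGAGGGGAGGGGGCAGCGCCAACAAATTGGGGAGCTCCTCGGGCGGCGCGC
Col4a2: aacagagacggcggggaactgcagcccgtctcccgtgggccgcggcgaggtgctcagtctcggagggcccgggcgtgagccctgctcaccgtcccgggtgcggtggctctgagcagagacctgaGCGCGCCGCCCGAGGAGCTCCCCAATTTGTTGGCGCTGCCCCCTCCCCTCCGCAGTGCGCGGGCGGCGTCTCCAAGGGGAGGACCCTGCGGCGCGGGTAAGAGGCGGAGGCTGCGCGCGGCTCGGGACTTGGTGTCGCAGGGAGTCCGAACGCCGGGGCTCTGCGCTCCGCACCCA
Col4a3: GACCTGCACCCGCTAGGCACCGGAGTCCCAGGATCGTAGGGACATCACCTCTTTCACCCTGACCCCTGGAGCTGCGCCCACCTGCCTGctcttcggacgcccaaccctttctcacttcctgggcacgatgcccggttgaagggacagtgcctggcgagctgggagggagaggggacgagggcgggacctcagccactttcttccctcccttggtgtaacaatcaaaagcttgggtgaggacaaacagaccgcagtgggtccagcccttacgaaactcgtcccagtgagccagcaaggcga
Col4a4: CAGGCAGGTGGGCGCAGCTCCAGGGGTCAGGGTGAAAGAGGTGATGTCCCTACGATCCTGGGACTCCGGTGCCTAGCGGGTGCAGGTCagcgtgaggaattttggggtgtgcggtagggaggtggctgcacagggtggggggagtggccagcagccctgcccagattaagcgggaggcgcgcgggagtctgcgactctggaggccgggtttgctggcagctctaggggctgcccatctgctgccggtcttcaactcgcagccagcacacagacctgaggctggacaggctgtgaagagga
Col4a5: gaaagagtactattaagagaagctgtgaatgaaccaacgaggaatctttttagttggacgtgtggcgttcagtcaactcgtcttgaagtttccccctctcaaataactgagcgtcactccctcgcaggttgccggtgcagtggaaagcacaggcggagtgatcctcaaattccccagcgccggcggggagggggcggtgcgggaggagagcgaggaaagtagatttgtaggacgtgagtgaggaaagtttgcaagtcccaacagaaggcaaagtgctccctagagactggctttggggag
Col4a6: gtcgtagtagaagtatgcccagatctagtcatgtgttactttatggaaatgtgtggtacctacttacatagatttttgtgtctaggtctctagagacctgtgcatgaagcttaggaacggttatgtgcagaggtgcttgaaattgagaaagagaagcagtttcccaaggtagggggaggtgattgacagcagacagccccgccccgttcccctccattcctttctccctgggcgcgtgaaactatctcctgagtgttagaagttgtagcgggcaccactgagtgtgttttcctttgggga

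The start sites of Col4a1 and Col4a2 were 77 bases apart and their windows shared 176 bases. Those of Col4a3 and Col4a4 were 413 bases apart and shared 88 bases. Those of Col4a5 and Col4a6 were 1415 bases apart and shared no base. Among all 33469 windows in the RefSeq table, 9.28% overlapped a window on the opposite strand that pointed away from it. The windows of the common chains were the richest in G and C, at 75.0% for Col4a1 and 73.7% for Col4a2, against 62.0% for Col4a3, 65.3% for Col4a4, 53.3% for Col4a5 and 48.3% for Col4a6 and a median of 51.7% over all windows. They held 38 and 37 CpG sites, against 15 for Col4a3, 14 for Col4a4, 15 for Col4a5 and 7 for Col4a6, and a median of 7 over all windows. The letters CCAAT, searched on both strands, stood in the Col4a1 window at 2 places and in the Col4a2 window at 1 place, and in 37.5% of all windows. The letters GGGCGG stood in every window but that of Col4a4, and in 33.1% of all windows. CAGACA stood only in the Col4a6 window among the 6, and in 21.1% of all windows. TATAAA (14.2% of all windows) and CACGTG (6.42%) stood in none of the 6. The places of CCAAT and GGGCGG that lie in the shared bases of a pair count for both genes.

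Reads were counted per gene by the authors, with totals of 45039451 to 52241007 for BAPN libraries and 19548203 to 22442050 for Vehicle libraries. Even the shallowest BAPN library held 2.01 times the reads of the deepest Vehicle library, so that sequencing depth and treatment cannot be told apart. Levels are given as CPM (read counts scaled to the size of the library) on TMM-scaled library sizes, and they compare 1 gene between libraries, not genes of different length with each other. Groups were compared with edgeR's quasi-likelihood test on the 11682 genes with a base mean (the mean scaled count) of at least 100, and FDR stands for its Benjamini-Hochberg adjusted p over all these genes, with a threshold of 0.05. Markers of endothelium (Tie1, Vwf) and smooth muscle (Myh11, Acta2, Tagln) were present in every library. Fewer cells of a type and less RNA per cell cannot be told apart in such whole-tissue samples.

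All 6 chains had lower mean levels in the BAPN veins, with log2 fold changes of -0.58 and -0.84 for the common chains Col4a1 and Col4a2, which did not pass, and of -1.47 to -2.61 for the rarer chains. Col4a4 fell, to a level 3.39-fold lower, and was the only 1 of the 5 tested chains past the FDR threshold, where 9.25% of all tested genes were called lower. Col4a6, under the base mean limit, fell 6.12-fold in a fit of all genes with any count, where 4.03% of genes were called lower. For 4 of the 6 chains, Col4a3 to Col4a6, the groups did not overlap, with all BAPN rats below the lowest Vehicle rat. The same held for 11.9% of tested genes, which do not include Col4a6. DESeq2 called 3 of the 5 tested chains lower, adding Col4a3 and Col4a5, against 15.1% of the genes it tested. The median log2 fold change was -1.47 over the 5 tested chains and 0.02 over all tested genes, 48.4% of which were lower.

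**Figure D1:**
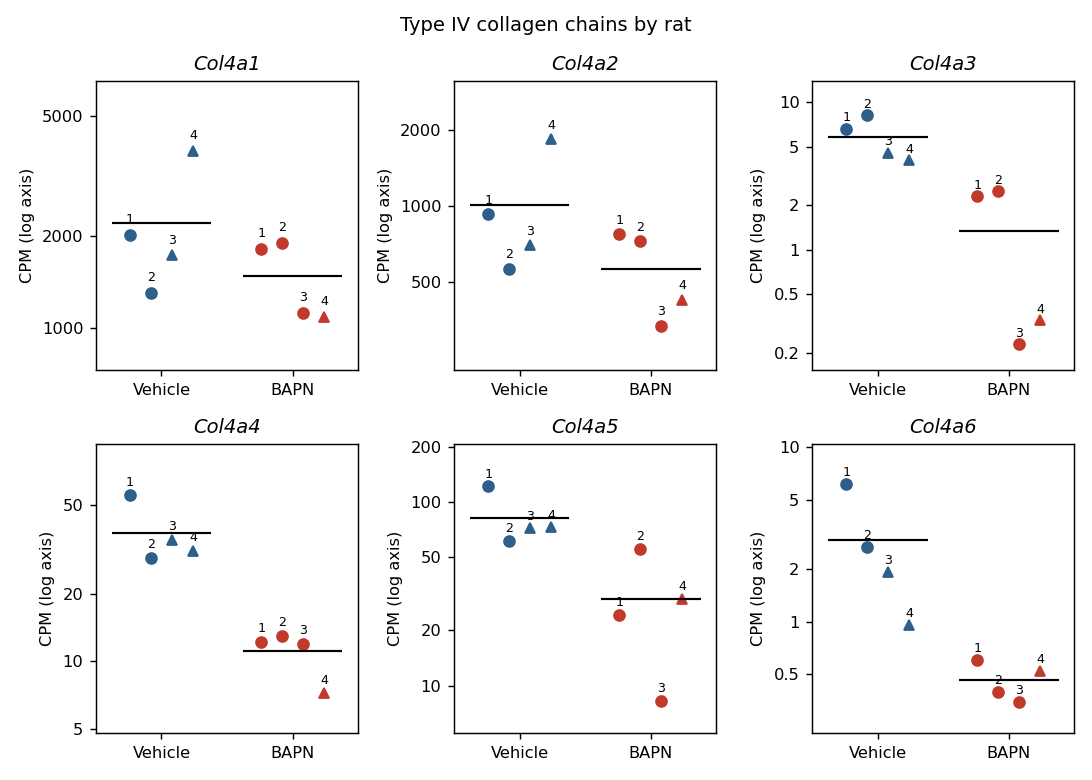
Level of each chain in each rat, in CPM on log axes that differ between panels. Digits give the replicate number, circles are females, triangles are males and the horizontal lines are group means (n = 4). All BAPN rats sit below all Vehicle rats for Col4a3, Col4a4, Col4a5 and Col4a6, while the groups overlap for Col4a1 and Col4a2, where Vehicle 4 stands highest at 3822 and 1833 CPM.

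Col4a1 (ENSRNOG00000016281), the more frequent chain in the trimer of nearly all basement membranes, stood at 1822, 1904, 1116 and 1086 CPM in BAPN 1 to 4 and at 2014, 1299, 1729 and 3822 CPM in Vehicle 1 to 4. The groups overlapped, and Vehicle 4 was far above the other Vehicle rats. The means were 1482 ± 441 CPM and 2216 ± 1110 CPM (SD, n = 4), a log2 fold change of -0.58 (standard error 0.35, edgeR FDR 0.259, DESeq2 FDR 0.181). Without Vehicle 4 the log2 fold change was -0.18 (edgeR FDR 0.669).

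Col4a2 (ENSRNOG00000023972), its partner in the same trimer and in the same gene pair, stood at 769, 723, 335 and 424 CPM in BAPN 1 to 4 and at 928, 564, 699 and 1833 CPM in Vehicle 1 to 4. BAPN 1 and 2 lay among the Vehicle rats, BAPN 3 and 4 below them, and Vehicle 4 was again the highest. The means were 563 ± 216 CPM and 1006 ± 572 CPM (SD, n = 4), a log2 fold change of -0.84 (standard error 0.40, edgeR FDR 0.167, DESeq2 FDR 0.0859). Without Vehicle 4 the log2 fold change was -0.38 (edgeR FDR 0.439).

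Col4a3 (ENSRNOG00000015365), a chain of the glomerular trimer, was read at a low level, with a base mean of 114. Its counts were 111, 127, 10 and 16 reads in BAPN 1 to 4 and 141, 165, 108 and 85 reads in Vehicle 1 to 4, or 2.30, 2.51, 0.231 and 0.334 CPM and 6.60, 8.16, 4.55 and 4.06 CPM. The groups did not overlap, and the BAPN rats fell into a pair near the Vehicle rats and a pair close to 0. The 10 reads of BAPN 3 have an exact 95% Poisson interval of 4.8 to 18.4 reads, which covers counting error alone, as do all such intervals here. The means were 1.34 ± 1.23 CPM and 5.84 ± 1.90 CPM (SD, n = 4). The log2 fold change of -2.11 (standard error 0.69) did not pass with edgeR (FDR 0.0673) and passed with DESeq2 (FDR 0.0117).

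Col4a4 (ENSRNOG00000014851), the head-to-head partner of Col4a3 and a chain of the same trimer, stood at 12.2, 13.0, 12.0 and 7.18 CPM in BAPN 1 to 4 and at 55.0, 29.0, 34.9 and 31.2 CPM in Vehicle 1 to 4. The groups did not overlap, and the lowest Vehicle rat was well above the highest BAPN rat. Counts ranged from 344 to 1175 reads per library. The means were 11.1 ± 2.63 CPM and 37.5 ± 11.9 CPM (SD, n = 4). The log2 fold change was -1.76 (standard error 0.25, edgeR FDR 0.00806, DESeq2 FDR 8.19e-09). It stayed past the threshold in every alternative fit, in which the highest FDR was 0.0475, in the females alone.

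Col4a5 (ENSRNOG00000018951), which takes part in both trimers of the rarer chains and is encoded on the X chromosome, stood at 24.3, 55.6, 8.28 and 29.7 CPM in BAPN 1 to 4 and at 121.9, 61.5, 71.9 and 72.6 CPM in Vehicle 1 to 4. The groups did not overlap, with only a narrow gap between BAPN 2 and Vehicle 2. The means were 29.5 ± 19.7 CPM and 82.0 ± 27.1 CPM (SD, n = 4). The log2 fold change of -1.47 (standard error 0.48) did not pass with edgeR (FDR 0.0605) and passed with DESeq2 (FDR 0.00775). Without BAPN 2 it was -1.99 and passed with edgeR (FDR 0.0334).

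Col4a6 (ENSRNOG00000056772), on the X chromosome beside Col4a5, is the chain that marks the trimer of some smooth muscle basement membranes. It had a base mean of 54.0, below the limit, and its counts were 29, 20, 15 and 25 reads in BAPN 1 to 4 and 132, 54, 46 and 20 reads in Vehicle 1 to 4. On the CPM scale these were 0.602, 0.395, 0.346 and 0.522 in BAPN and 6.18, 2.67, 1.94 and 0.956 in Vehicle. The groups did not overlap in CPM, the BAPN rats were close to each other, and the Vehicle rats were spread widely. The 20 reads of Vehicle 4 have a 95% Poisson interval of 12.2 to 30.9 reads, and the 29 reads of BAPN 1 one of 19.4 to 41.7 reads from a deeper library. The gap between the groups, from 0.602 CPM in BAPN 1 to 0.956 CPM in Vehicle 4, rests on these few reads. The means were 0.466 ± 0.117 CPM and 2.94 ± 2.27 CPM (SD, n = 4). In the edgeR fit of all 20421 genes with a count, the log2 fold change was -2.61 (standard error 0.62, edgeR FDR 0.0255, DESeq2 FDR 0.000121). The call was lost without BAPN 2 (log2 fold change -2.54, edgeR FDR 0.0507), BAPN 3 (-2.49, 0.073), BAPN 4 (-2.68, 0.055) or Vehicle 1 (-1.95, 0.0997). It was also lost with a block for the replicate number (-2.37, edgeR FDR 0.073).

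**Figure D2:**
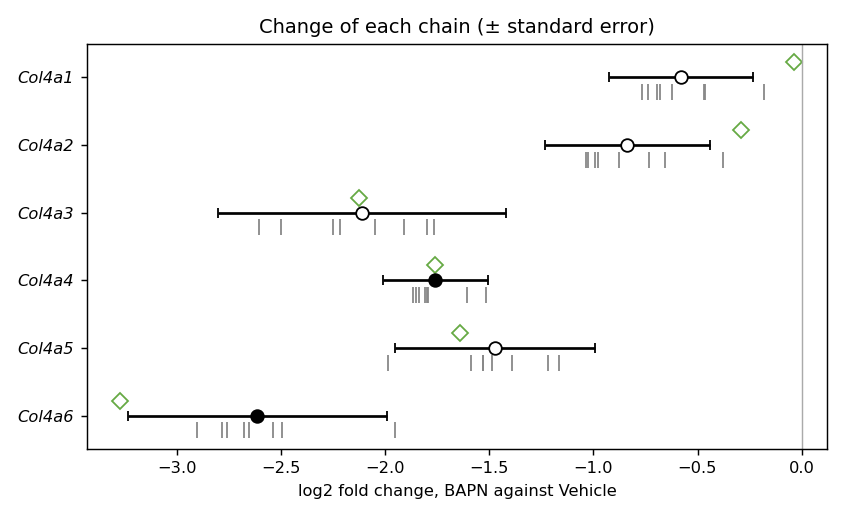
Log2 fold change of each chain, BAPN against Vehicle, with its standard error (bars). Filled circles have an edgeR FDR below 0.05, Col4a6 comes from the fit of all genes with any count, grey ticks leave out 1 rat at a time and open diamonds are the females alone. Col4a4 and Col4a6 are filled, and Col4a1 comes closest to 0, at -0.04 in the females and -0.18 without Vehicle 4.

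The groups differ in sex, so the chains were also read within the females. The 3 BAPN and 2 Vehicle females gave log2 fold changes of -0.04 for Col4a1, -0.29 for Col4a2, -2.13 for Col4a3, -1.76 for Col4a4, -1.64 for Col4a5 and -3.27 for Col4a6. Col4a4 passed in the fit of the tested genes (edgeR FDR 0.0475), and Col4a6 in a separate fit of all genes with any count in the females (edgeR FDR 0.0215). The other chains did not pass. The only BAPN male had 29.7 CPM of Col4a5, below the 71.9 and 72.6 CPM of the 2 Vehicle males, and 0.522 CPM of Col4a6, below their 1.94 and 0.956 CPM. With sex as a term, Col4a4 (log2 fold change -1.92, edgeR FDR 0.00999) passed, and Col4a3 (-2.59, 0.0573) and Col4a5 (-1.51, 0.0942) did not. Col4a6, again from the separate fit of all genes with any count, passed too (-2.60, edgeR FDR 0.0294).

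Whether the rarer chains were lower relative to the common chains was asked with ratios within each library, which do not depend on library scaling. Col4a3 gave 0.889, 0.954, 0.159 and 0.221 reads per 1000 reads of Col4a1 and Col4a2 in BAPN 1 to 4, against 2.24, 4.38, 1.87 and 0.718 reads in Vehicle 1 to 4. Col4a4 gave 4.71, 4.93, 8.23 and 4.76 reads in BAPN and 18.7, 15.5, 14.4 and 5.52 in Vehicle. In both ratios Vehicle 4, the rat with the most Col4a1 and Col4a2, lay among the BAPN rats, and the other Vehicle rats were above all of them. Col4a5 gave 9.39, 21.2, 5.71 and 19.7 reads in BAPN and 41.4, 33.0, 29.6 and 12.8 in Vehicle. Col4a6 gave 0.232, 0.150, 0.238 and 0.346 reads in BAPN and 2.10, 1.43, 0.798 and 0.169 in Vehicle. The order was the same as before, with Vehicle 1, 2 and 3 above all BAPN rats and Vehicle 4 among them.

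All 4 ratios were lower in the BAPN group on average, by -2.17 for Col4a3, -1.17 for Col4a4, -1.14 for Col4a5 and -1.77 for Col4a6 on the log2 scale. None passed an exact two-sided permutation test over the 70 arrangements of the rats, with p = 0.0857, 0.0571, 0.114 and 0.114 in that order, and 0.114 for each after Benjamini-Hochberg adjustment over the 4 ratios. The smallest p that 4 rats against 4 allow is 0.0286. In the females alone the differences were -2.59, -1.56, -1.83 and -3.07 in the same order, with exact permutation p = 0.1, 0.1, 0.2 and 0.1, where 0.1 is the smallest that 3 rats against 2 allow. Without Vehicle 4, Col4a4 (-1.55) and Col4a6 (-2.51) reached an exact permutation p of 0.0286, the smallest that 3 rats against 4 allow. The difference of Col4a4 in CPM was past its threshold, and that of its ratio to the common chains was not.

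**Figure D3:**
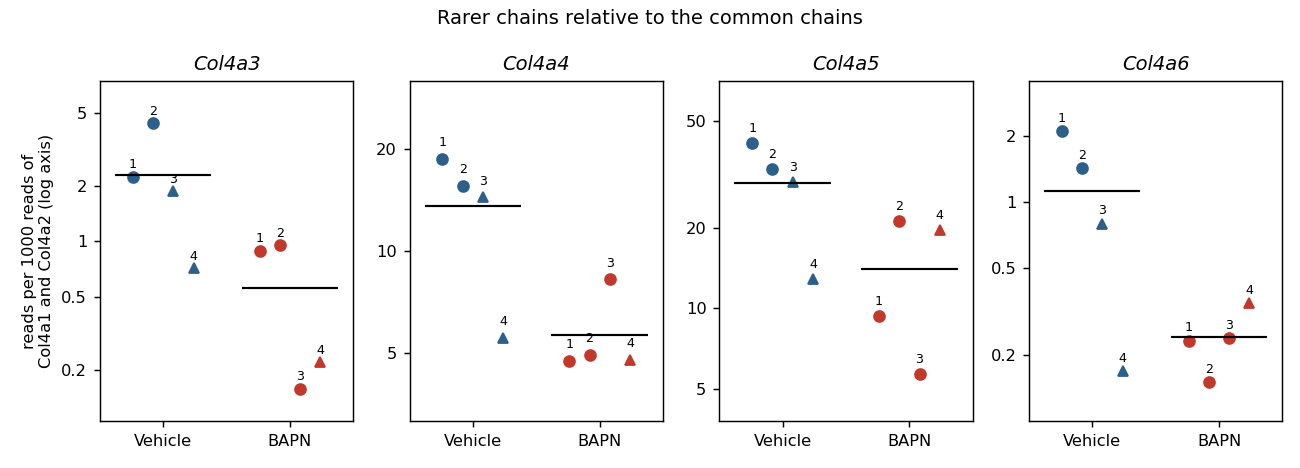
Reads of each rarer chain per 1000 reads of Col4a1 and Col4a2 in each rat, on log axes that differ between panels. Digits give the replicate number, circles are females, triangles are males and lines are group means (n = 4). Vehicle 4 sits among the BAPN rats in all 4 panels, for example at 5.52 against 4.71 to 8.23 for Col4a4.

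The chains of a gene pair were compared through their read ratio in each library, as a description without a test. The Col4a2 to Col4a1 ratio came to 0.422, 0.380, 0.300 and 0.391 for BAPN 1 to 4, against 0.461, 0.434, 0.404 and 0.480 for Vehicle 1 to 4. It moved within a 1.60-fold range over the 8 rats although each gene alone moved more. The Col4a3 to Col4a4 ratio was 0.189, 0.193, 0.0193 and 0.0465 in BAPN and 0.120, 0.282, 0.130 and 0.130 in Vehicle, a 14.6-fold range with the lowest values in BAPN 3 and 4. The Col4a6 to Col4a5 ratio was 0.0247, 0.00709, 0.0418 and 0.0176 in BAPN and 0.0507, 0.0434, 0.0269 and 0.0132 in Vehicle, a 7.15-fold range, with BAPN 2 lowest. The groups overlapped for all 3 ratios. The numerators of the latter ratios rest on few reads, down to 10 for Col4a3 and 15 for Col4a6.

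**Figure D4:**
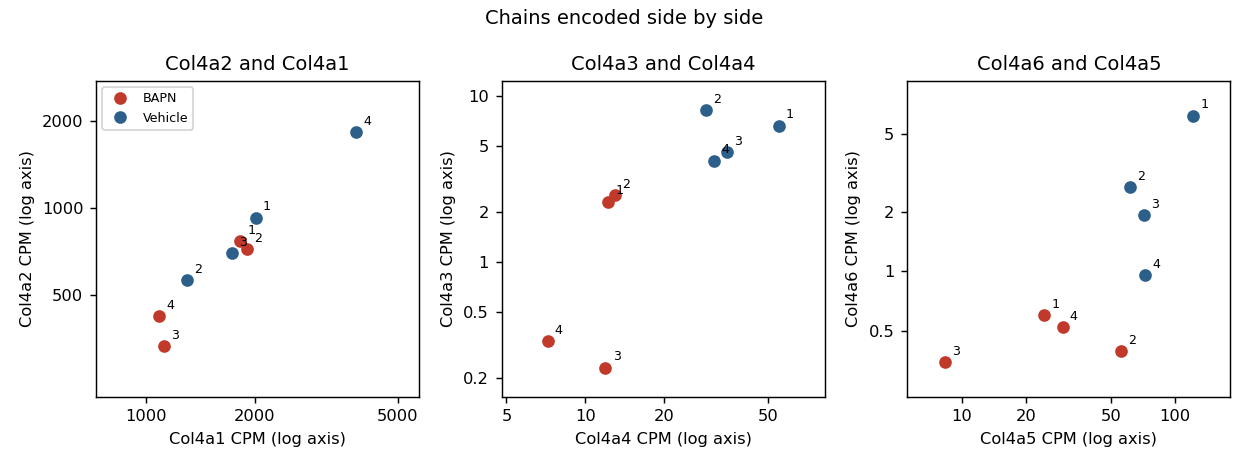
CPM of the chains of each gene pair plotted against each other, 1 point per rat with its replicate number, on log axes. Points for Col4a2 and Col4a1 lie close to a line, with a 1.60-fold range of their read ratio, and points of the other pairs scatter, with ranges of 14.6-fold and 7.15-fold.

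Genes most like each chain over the 8 libraries were found by the root mean square difference of centred log2 CPM, out of 11682 genes. Up to 3 of the nearest with a symbol are named. This difference depends on the size of a gene's changes and on counting noise, not on their pattern alone. A chain with large changes or few reads can therefore rank far from a steadier gene of similar pattern. Ranks also differ with the chain they are counted from. The nearest to Col4a1 were Gpc4 (0.09), Clec11a (0.11) and Armcx4 (0.12), with Col4a2 at rank 70 (0.20). Among the nearest to Col4a2 were Abi3bp (0.12) and Col5a1 (0.14), with Col4a1 at rank 13. Counted from the common chains, no rarer chain came nearer than rank 6542. The nearest to Col4a4 were Itgb4 (0.19), Pgm5 (0.20) and Ltbp4 (0.24). From Col4a4, Col4a6 was at rank 978, Col4a5 at rank 1745, Col4a2 at rank 2028, Col4a1 at rank 2350 and its partner Col4a3 at rank 7802. The nearest to Col4a3 were Abcg4 (0.57), Synpo2 (0.63) and Plxnb1 (0.64), with Col4a5 at rank 39, Col4a4 at rank 125, Col4a6 at rank 160, Col4a2 at rank 845 and Col4a1 at rank 1639. Among the nearest to Col4a5 were Fam171b (0.40) and Gpc6 (0.41), with Col4a4 at rank 523, Col4a2 at rank 959, Col4a6 at rank 1252, Col4a3 at rank 1799 and Col4a1 at rank 1813. Col4a2 thus ranked nearer to Col4a5 than Col4a3 and Col4a6 did, with close differences of 0.84, 0.94 and 0.88 in that order. Col4a3 and Col4a6 rest on few reads, which adds counting noise to theirs. The nearest to Col4a6 were Gpc3 (0.25), Gpd1 (0.39) and Cgnl1 (0.44). From Col4a6, Col4a4 was at rank 29, Col4a5 at rank 183, Col4a3 at rank 1306, Col4a2 at rank 3648 and Col4a1 at rank 4969.

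Genes around the making, crosslinking, binding and cutting of type IV collagen, with inhibitors of the cutting enzymes, were read from 5 lists with 71 genes. A place in a list does not mean that a gene is specific to type IV collagen or known to bind it. Of the 71, 66 matched by exact name, 3 by a RefSeq synonym and 2 (Mia3 and Lama3) were not matched. Of the 64 tested, 6 fell and 1 rose, where 9.25% of all tested genes were called lower and 7.5% higher, and their median log2 fold change was -0.53. The counts of fallen genes ran from 0 to 11 when 1 rat was left out. With sex as a term 1 gene was called lower, in the females alone 1 and with the replicate block 2. At an unadjusted p below 0.05, 23 of the 64 genes were lower in the fit without these terms, 21 with sex as a term, 10 in the females alone and 20 with the replicate block. Over all tested genes the shares lower at that p were 18.4%, 15.5%, 12.7% and 16% in the same order, and 17.4% were higher in the fit without these terms.

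The basement membrane partners, proteins that meet type IV collagen in the same sheet, were all lower, 20 of 20 tested genes, with a median log2 fold change of -0.77. Over all tested genes, 48.4% were lower and 9.25% were called lower. Of the 20 partners, 4 fell. These were Lamb2, a laminin beta chain (212.5 ± 61.2 against 486 ± 189 CPM, SD, n = 4, log2 fold change -1.19), Lama2, a laminin alpha chain of muscle and nerve (69.9 ± 17.3 against 133 ± 37.5 CPM, -0.93), Smoc2, a calcium-binding relative of Sparc (138 ± 6.17 against 233 ± 69.99 CPM, -0.76), and Ntn4, a netrin that binds laminin (10.4 ± 1.43 against 29.0 ± 14.7 CPM, -1.47). Their edgeR FDR values were 0.0321, 0.0338, 0.0362 and 0.0217. The partners with the largest mean CPM, a value that also grows with gene length, Sparc, which binds collagen (-0.40, edgeR FDR 0.441), and Nid1, which links laminin to type IV collagen (-0.66, edgeR FDR 0.210), did not pass. Hspg2, the perlecan core protein, matched through a RefSeq synonym to a row listed as AABR07073181.1, stood at a log2 fold change of -2.01 with a standard error of 0.66 (edgeR FDR 0.0659) and is named here after its values were seen.

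Among receptors, 9 of 10 tested genes were lower, with a median of -0.75, where 48.4% of all tested genes were lower. Only 1 of the 10 was called, near the 9.25% of all tested genes called lower. This was Ddr2, which fell (26.8 ± 11.8 against 78.7 ± 28.0 CPM, SD, n = 4, log2 fold change -1.56, edgeR FDR 0.0261). Ddr2 is a collagen-activated receptor tyrosine kinase known mainly for binding fibrillar collagens. Itgb1, the beta chain of the collagen-binding integrins (0.16, edgeR FDR 0.521), and Cd93, an endothelial receptor (-0.30, edgeR FDR 0.122), had the largest mean CPM and did not pass.

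Among crosslinking genes, 7 of 8 were lower with a median of -0.54, and edgeR called 0, with 2 lower at an unadjusted p below 0.05, where 18.4% of all tested genes were, and 2 called lower by DESeq2, where 15.1% were. The largest mean CPM belonged to Loxl1 (-0.69, edgeR FDR 0.0623) and Lox (-0.17, edgeR FDR 0.678), both lysyl oxidases and so targets of BAPN. A further pair is named after its values were seen. Loxl2, a lysyl oxidase known to crosslink type IV collagen, stood at -0.89 on the log2 scale (standard error 0.32, edgeR FDR 0.0817), and Pxdn, the peroxidase that forms its sulfilimine crosslinks, had -0.75 (standard error 0.38, edgeR FDR 0.194).

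Modification and secretion genes, which hydroxylate, fold and export collagen chains, did not move one way. Of 17 tested, 8 were lower and the median was 0.03. Ctage5, which helps large cargo leave the endoplasmic reticulum and is listed as Mia2, rose (76.2 ± 6.17 against 57.6 ± 4.91 CPM, SD, n = 4, log2 fold change 0.40, edgeR FDR 0.032). It was the only 1 of the 17 called, where 7.5% of all tested genes were called higher. The collagen chaperone Serpinh1 (-0.48, edgeR FDR 0.246) and P4hb, a subunit of the prolyl hydroxylase (0.27, edgeR FDR 0.178), had the largest mean CPM. The degradation list holds proteases and also Timp1, Timp2 and Timp3, which inhibit metalloproteinases. Of its 9 tested genes, 5 were lower, among them Timp2 (-0.52, which is the median of the list, edgeR FDR 0.0746) and Timp3 (-0.62, edgeR FDR 0.055), and Timp1 was at 0.70 (edgeR FDR 0.0839). These inhibitors are named after their values were seen. Mmp14, a membrane-bound metalloproteinase that activates Mmp2, fell (617 ± 94.8 against 1059 ± 312 CPM, SD, n = 4, log2 fold change -0.78, edgeR FDR 0.0432). It was the only 1 of the 9 called, where 9.25% of all tested genes were called lower. Those with the largest mean CPM were Mmp12, the macrophage elastase (0.64, edgeR FDR 0.334), and Mmp2, a gelatinase (-0.55, edgeR FDR 0.235).

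**Figure D5:**
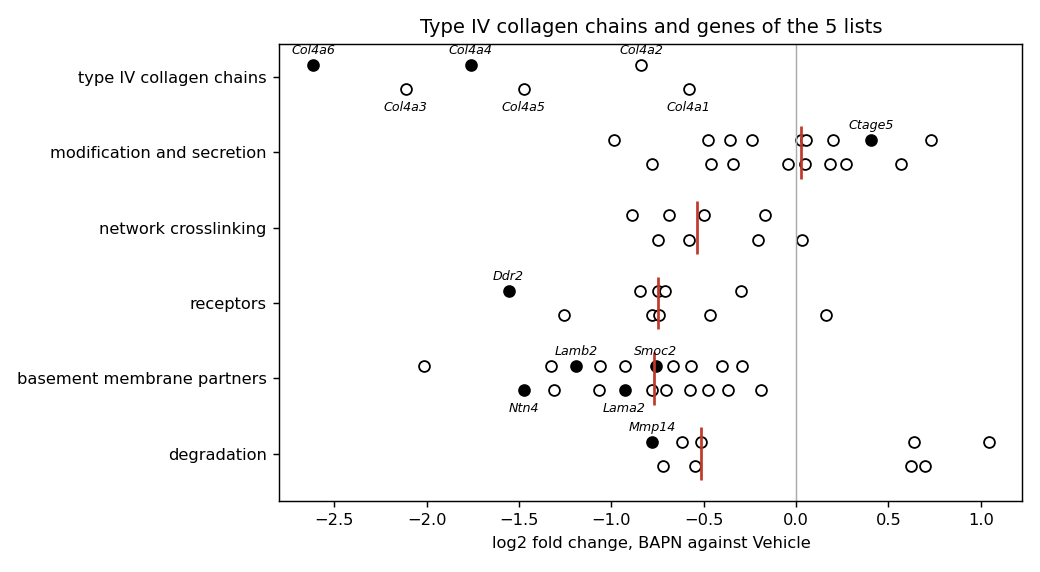
Log2 fold change, BAPN against Vehicle, of each chain and of each tested gene in the 5 lists, with filled circles for an edgeR FDR below 0.05 and red lines for list medians (-0.77 for basement membrane partners, 0.03 for modification and secretion). Col4a6 comes from the fit of all genes with any count. All 20 basement membrane partners lie below 0, and genes of modification and secretion lie on both sides.

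Markers of 9 cell types were read in the same fit. Over all tested genes, 48.4% were lower, 9.25% were called lower and 11.9% were separated with BAPN below Vehicle. Of 10 smooth muscle markers, 10 were lower and 6 fell (Myh11, Cnn1, Smtn, Lmod1, Des and Synpo2), with a median of -1.29, and their summed level was 1722 to 4504 CPM in BAPN and 3493 to 6459 CPM in Vehicle. Myh11, smooth muscle myosin, stood at 411 ± 190 against 1244 ± 219 CPM (SD, n = 4, log2 fold change -1.60, edgeR FDR 0.0148). Of 9 endothelial markers, 9 were lower and 3 fell (Tek, Vwf and Cldn5), with sums of 523 to 702 CPM and 882 to 1631 CPM that did not overlap. Of 7 pericyte markers, 7 were lower and 4 fell (Rgs5, Kcnj8, Abcc9 and Notch3), with sums of 553 to 826 CPM and 912 to 1967 CPM that did not overlap either. Of 7 fibroblast markers, 6 were lower and Cd34 fell, with sums of 3397 to 4868 CPM and 3639 to 6853 CPM, and of 6 adipocyte markers, 5 were lower and Plin1 fell, with sums of 1100 to 2942 CPM and 491 to 1752 CPM, led by Fabp4.

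Macrophage markers ran the other way, with 7 of 8 higher and a summed level of 27630 to 41170 CPM in BAPN against 5750 to 22610 CPM in Vehicle, sums that did not overlap, mostly from Lyz2 (log2 fold change 1.28, edgeR FDR 0.0722). Of these 8, edgeR called 0, with 2 higher at an unadjusted p below 0.05, where 17.4% of all tested genes were, and 2 called higher by DESeq2, where 12.3% were. Schwann cell markers (165 to 401 CPM against 164 to 216 CPM), skeletal muscle markers (17.1 to 30.9 CPM against 18.3 to 70.8 CPM) and epithelial and mammary markers (52.9 to 120 CPM against 18.5 to 98.7 CPM) overlapped between the groups. Of their 7, 2 and 4 tested genes edgeR called 0, with 1 higher, 1 lower and 1 higher at an unadjusted p below 0.05 and only the skeletal muscle gene called by DESeq2. The markers with the largest mean CPM named here were Tagln and Acta2 for smooth muscle, Tie1 and Vwf for endothelium, Pdgfrb and Notch3 for pericytes, Dcn and Lum for fibroblasts, Fabp4 and Adipoq for adipocytes, Lyz2 and Cd68 for macrophages, Egr2 for Schwann cells, Tnnt3 and Acta1 for skeletal muscle, and Cldn4 and Lalba for epithelium and mammary gland. Of the listed markers 5 were not matched by name (Pecam1, Pcolce2, Ly6c, Myh1 and Myh2), and no matched marker was at 0 in all 8 libraries. The part of these markers in the fall of Col4a4 and Col4a6 was not tested.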

How the data were processed

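RNA of the outflow vein of each of 8 rats was sequenced as ribosomal RNA-depleted stranded libraries. The authors deposited whole-number counts of reads per Ensembl gene, without normalization. The submitters' processing notes name bcl2fastq 2.17, Trim Galore and STAR. The counter, its strand setting, the annotation and the genome build were not given in the sources used here. Groups, replicate numbers and sexes came from the sample labels, and replicates were separate rats.

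The counts were used as deposited. As in the study's methods, only genes whose base mean over the 8 libraries reached 100 were tested, 11682 genes. The methods name a DESeq plug-in and no model terms, and here treatment was the only term. edgeR 4.0.16 (TMM scaling, quasi-likelihood F test) in R 4.3.3 gave log2 fold changes and Benjamini-Hochberg FDR values, limma 3.58.1 (voom) standard errors, and DESeq2 1.42.0, the tool closest to that of the study, base means and an alternative test. The tested genes held 99.5% to 99.66% of all counts. Log2 CPM used a prior count of 2, and ratios a pseudocount of 0.5 reads. The fit was tested on simulated data.

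All 6 chains were named, as were, of each list, the genes called and the 2 with the largest mean CPM, and the 3 tested genes most like each chain. Of these, 3 genes are not reported here. The chains and lists were chosen with earlier results of these data known. Alternatives were DESeq2, other scalings and filters, sex as a term, only females, a block for the replicate number, libraries thinned to equal totals and fits leaving out each library. Promoter windows came from the RefSeq table of assembly GRCr8, which may not be the build of the counts. Protein sequences and transcript lengths were not used here. All pairs of replicates differed by more than counting noise, with a chi-square of at least 68.6 for each degree of freedom.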

Additional observations from a re-analysis of the deposited data

Results flagged for a closer look

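Of 60 groups of 4 rats checked for a rat far from the others (the chains, their ratios and 17 genes of the lists), 2 stood out, where chance alone gives about 1 in 20. BAPN 3 was the highest BAPN rat in the ratio of Col4a4 to Col4a1 and Col4a2, at -6.92 on the log2 scale (8.23 reads per 1000), with the others between -7.73 and -7.66, so that its gap took 0.919 of the range of the group. BAPN 3 also had the lowest Col4a2 level of all rats. Vehicle 2 was the highest Vehicle rat in the ratio of Col4a3 to Col4a4, at -1.83 on the log2 scale (a ratio of 0.282), with the others between -3.05 and -2.93, a gap of 0.902 of the range. The critical value for 4 samples is 0.829.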

How the results depend on the processing

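No chain changed its direction in any alternative, and of 107 values of single chains under alternatives 99 kept their side of the threshold. The number of tested chains called lower was 1 in all fits except DESeq2 (3) and the fit without BAPN 2 (2), so that leaving out 1 rat gave 1 to 2. Leaving out 1 rat gave log2 differences of -2.64 to -1.72 for Col4a3, -1.55 to -0.96 for Col4a4, -1.49 to -0.77 for Col4a5 and -2.51 to -1.31 for Col4a6 relative to the common chains, and 0 to 2 of these ratios at an exact permutation p below 0.05. The 2 were Col4a4 (-1.55) and Col4a6 (-2.51) without Vehicle 4. Within gene pairs the log2 differences ranged from -0.32 to -0.16 for Col4a2 to Col4a1, from -1.45 to -0.36 for Col4a3 to Col4a4 (-0.36 without BAPN 3) and from -1.02 to -0.16 for Col4a6 to Col4a5 (-0.16 without BAPN 2).

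The number of fallen genes in the 5 lists was 6 of 64 tested, where 9.25% of all tested genes were called lower. With DESeq2 it was 20, where 15.1% of the genes it tested were. It was 1 with sex as a term, 1 in the females alone, 5 to 9 with other scalings, filters or equal totals, and 0 to 11 with 1 rat left out. It was 0 without BAPN 4 or Vehicle 1, 1 without BAPN 3 or Vehicle 4, 3 without BAPN 1 and 11 without Vehicle 2. At an unadjusted edgeR p below 0.05, 18 of the 64 were lower without BAPN 4 and 16 without Vehicle 1, against 23 with all rats. Over all tested genes the shares lower at that p were 16.4%, 15.2% and 18.4% in the same order. The alternatives for the lists and the gene pairs were chosen after seeing the data. The cause of these changes was not tested.

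The replicate numbers gave no sign of pairing the rats. Same-numbered rats deviated together with correlations of 0.0944, -0.265, 0.269 and -0.14, and 1 of 4 BAPN rats was best matched by its own number. With so few rats this cannot show that they were unpaired, and the labels name no pairing. With the replicate block, 1 tested chain (Col4a4, edgeR FDR 0.0346) and 2 genes of the lists were called lower, Col4a6 had a log2 fold change of -2.37 (edgeR FDR 0.073), and the smallest exact p of a ratio was 0.125, the smallest that 4 pairs allow. Depth limits Col4a3 and Col4a6 most, with 10 and 15 reads in their lowest libraries.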
